A study of Mus musculus with 24 samples.

Results

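Regulatory T cells (Tregs) of visceral adipose tissue (VAT) were compared between male mice with and without the insulin receptor in these cells, after 13 weeks on a high-fat diet. The comparison took every mouse on this diet, 9 of the 24 mice measured: 4 controls and 5 knockouts, each aged 16 weeks. Expression of 96 genes was counted on a custom NanoString panel, on which colour-coded probes are counted one molecule at a time without amplification. All 9 mice were C57/Bl6 and carried Foxp3-YFP-Cre, which expresses Cre recombinase and a yellow fluorescent protein from the Foxp3 gene. Controls were Insr-wt/wt and knockouts Insr-fl/fl, so that Cre deletes the receptor gene where it is active. The labels state that this Cre line also recombines ectopically, outside Tregs. The mice were of an F4 generation, bred by crossing F3 littermates. Their diet (HFD), rich in fat and sucrose, began at 3 weeks of age. Knockout and control mice on normal chow (NCD; 3 and 3 mice, also 16 weeks old) and at 52 weeks of age on chow (6 and 3 mice) serve below as comparison groups of the same 2 genotypes. Cells from the tissue of each animal were sorted as CD45+ CD4+ Foxp3(YFP)+ and lysed, so each sample is a separate mouse.

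The insulin receptor is a receptor tyrosine kinase that signals through adaptor proteins such as Irs2 to the PI3K, Akt and mTOR pathway, and a high-fat diet raises circulating insulin. VAT Tregs are a tissue population that depends on the nuclear receptor Pparg, carries the IL-33 receptor Il1rl1 and restrains inflammation in fat through cytokines such as IL-10. In obesity these cells become fewer and lose part of this programme. The comparison asks how Treg expression on the diet that causes obesity and high insulin differs when the receptor is missing.

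Values are signal on a linear scale that the authors scaled to about 100000 per mouse. The counts behind them could be read off, since all 864 values of the 9 mice were whole multiples of the signal of 1 count in that mouse (tolerance 0.02 counts). Totals were 24005 to 152648 counts in controls (median 92251) and 34986 to 224793 in knockouts (median 99771). In each mouse 17 to 30 of the 96 genes had under 20 counts, and 3 values were 0. The Treg markers Foxp3, CD25 and Helios together made up 5.20% of the panel in control 3 and 8.41 to 11.2% in the other 8 mice. The T cell receptor gene Tcra had a signal of 443 to 2725. Of 13 myeloid markers 2 were on the panel, Lyz2 and Mmp9, with a summed signal of 37.4 to 464 in controls and 33.3 to 292 in knockouts, highest in control 3. Of 11 stromal, endothelial and adipocyte markers only Igfbp7 was measured (17.1 to 1151 in controls, 95.2 to 294 in knockouts). None of the 7 markers of B, NK, CD8 T and mast cells was measured, and no measured marker was at 0. The 96 values summed to slightly more than 100000 in all 4 controls (by 0.071 to 4.90%, most in control 3) and in 0 of the 5 knockouts. In a sorted sample, fewer cells that express a gene and less of its RNA per cell cannot be told apart.

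Control 3 stood apart from the other controls. The median over genes of its distance from the rest of its group was 0.825 log2 units, against 0.567 to 0.686 for controls 1, 2 and 4 and 0.327 to 0.679 for the knockouts within theirs. It was the lowest or highest control in 56 of 94 genes, against 36, 46 and 50 for controls 1, 2 and 4. For the 34 named genes and the medians of lists with 3 or more measured genes, values without this mouse are given below or in a caption. They are given where they differ by more than 1.5 times or in sign.

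Of the 96 genes, 2 passed between knockout and control on HFD, which is 2.08%, and both fell: InsR and Rorgt. None rose. The test was limma on log2(signal + 1) with Benjamini-Hochberg adjustment over the panel and a threshold of 0.05. With no adjustment 11 genes had p under 0.05 (11.5%). Fold changes here are on the log2(signal + 1) scale, which understates those of low genes. In 5 genes (5.21%) the 2 groups did not overlap: all knockouts were below all controls for InsR and Rorgt (2.08%) and above them for IL-10, TGFb and Tnfrsf9 (3.12%). An exact two-sided permutation test over all splits of the 9 mice gave these 5 genes p = 0.0159, the smallest it can give, and after adjustment no gene had less than 0.305. The median log2 fold change of all 96 genes was -0.097, or -0.059 without control 3. Centring on the 4 reference genes instead moved that median by 0.312, and differences of that size or less depend on the scaling.

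InsR, the insulin receptor and the deleted gene, had a signal of 103.9, 49.8, 89.1 and 125.1 in controls 1 to 4. In knockouts 1 to 5 it was 8.57, 3.01, 8.25, 5.55 and 1.78. Every knockout was far below every control. These knockout signals come from 3, 3, 5, 6 and 4 counts, against 30 to 115 counts in controls. The knockout counts stayed between 3 and 6 while the totals of these mice ranged from 34986 to 224793, so the residual signal is set largely by the total count of the mouse and its level is uncertain. The log2 fold change of InsR was -3.93 (SE 0.51, 95% interval -4.99 to -2.87, adjusted p = 9.49e-06 by limma), a 15.3-fold lower signal with an interval of 7.33 to 31.8. No source used here says whether the probe lies within the deleted exon.

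The insulin and IGF receptor signalling list had 3 measured genes, of which InsR fell and the other 2 did not pass. IGF1R, the receptor for insulin-like growth factor and the nearest relative of the insulin receptor on the panel, had a signal of 121 to 173 in controls and 119 to 221 in knockouts (log2 fold change 0.20, SE 0.38, 95% interval -0.59 to 0.98). Irs2, the adaptor that couples both receptors to PI3K, had 350 to 529 in controls and 266 to 769 in knockouts (0.38, SE 0.38, interval -0.41 to 1.17). Knockouts 2 and 3 had the highest Irs2 and knockout 1 the lowest of all 9 mice. The receptors of the adipose hormones adiponectin and leptin also did not pass: AdipoR1 differed by -0.23, AdipoR2 by -0.11 and LeptinR by 0.36, the last on 1 to 12 counts a mouse.

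**Figure D1:**
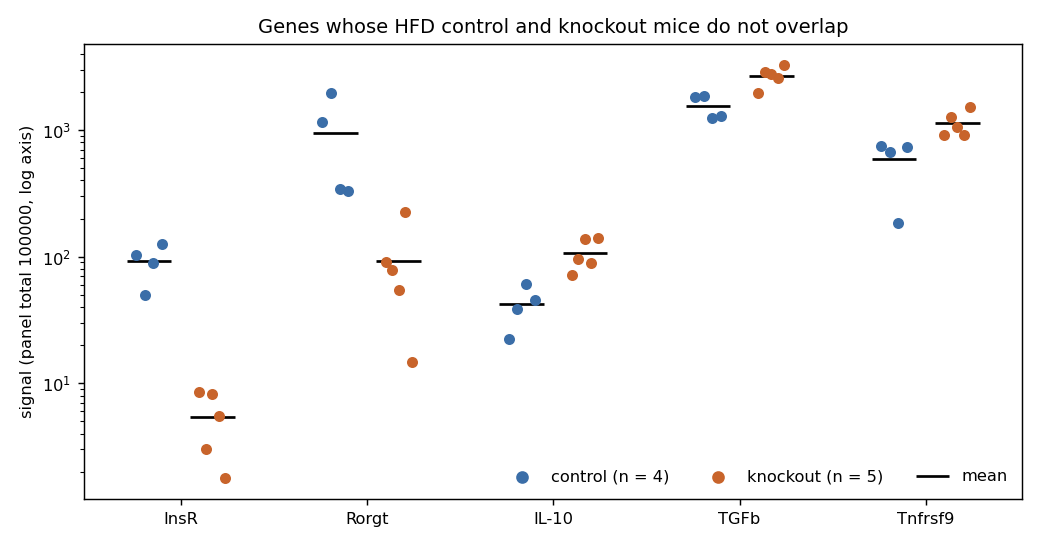
Signal (scaled to a panel total of about 100000, log axis) of the 5 genes whose HFD control and knockout mice did not overlap. Each point is a mouse (4 controls in blue, 5 knockouts in orange) and each line a group mean. InsR and Rorgt lie lower in every knockout, and IL-10, TGFb and Tnfrsf9 higher, with control 3 far below the other controls for Tnfrsf9.

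Rorgt, the panel's name for the lineage factor of IL-17-producing T cells and of a subset of Tregs, was the other gene that passed. Its signal was 1153, 1962, 339.5 and 329.3 in controls 1 to 4. In knockouts 1 to 5 it was 91.5, 78.2, 54.5, 225.0 and 14.7. The highest knockout was below the lowest control, but the controls themselves fell into 2 high and 2 low mice. Rorgt fell by 3.39 on the log2 scale (SE 0.80, 95% interval -5.04 to -1.74, adjusted p = 0.0152 by limma), a 10.5-fold lower signal with an interval of 3.33 to 32.9. Behind the knockout signals were 32, 78, 33, 243 and 33 counts. Knockouts 1, 3 and 5 thus had nearly the same count at totals of 34986, 60601 and 224793, so their signals run opposite to their totals and the size of the fall is uncertain. Whether these counts are a background level of the probe was not tested. The call was lost without control 1 (log2 fold change -3.16, adjusted p = 0.080), without control 2 (-2.90, 0.104), without knockout 5 (-2.86, 0.067) and when the HFD mice were fitted without the other groups (0.0755).

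The other 4 genes of the helper T cell lineage and ROR factor list all lay above 0 and none passed. RoRa, a ROR factor of type 2 innate lymphoid cells and tissue Tregs, had a signal of 1132, 842, 312 and 1234 in controls and 766, 1958, 2536, 2017 and 1464 in knockouts. Knockouts 2 to 5 exceeded every control and knockout 1 did not (log2 fold change 1.06, SE 0.65, adjusted p = 0.472; 0.62 without control 3). Tbet, the factor of IFN-gamma-producing helper cells, had 79.4 to 171 in controls and 138 to 279 in knockouts (0.86, SE 0.58), and only knockout 5 lay within the control range. Gata3, the factor of type 2 helper cells that VAT Tregs also use, had 991 to 1353 in controls and 1314 to 1531 in knockouts (0.29, SE 0.53, interval -0.82 to 1.39). Nr1d1, the clock repressor Rev-erb alpha that competes with ROR factors for DNA, differed by 0.12 (SE 0.59). Of the 14 helper cytokines in the list only Il5, the eosinophil growth factor, was on the panel. It had 8, 7, 8 and 5 counts in controls and 2, 2, 1, 4 and 1 in knockouts. The counts were lower in every knockout, but the signals overlapped (4.59 to 20.8 and 0.45 to 5.72), with a log2 fold change of -1.77 that did not pass (SE 0.65, adjusted p = 0.211).

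IL-10, the suppressive cytokine of VAT Tregs, was higher in all 5 knockouts than in all 4 controls and missed the threshold. Its signal was 22.4, 38.7, 61.2 and 45.9 in controls 1 to 4 and 71.5, 95.2, 137.0, 88.9 and 141.5 in knockouts 1 to 5. The lowest control had 11 counts and the highest knockout 318. The group means were 42.0 ± 16.1 (SD, n = 4) and 107 ± 30.9 (n = 5). The log2 fold change was 1.36 (SE 0.40, 95% interval 0.54 to 2.19, adjusted p = 0.0762 by limma), that is 2.57-fold with an interval of 1.45 to 4.55. IL-10 passed without control 3 (1.57, adjusted p = 0.0365), with centring on the 4 reference genes (1.67, 0.0494) and with weights for each sample (1.53, 0.0124); the adjusted p was 0.0124 to 0.310 over all settings and mice left out. Il10ra, the chain of the receptor that binds IL-10, had 87.9 to 321 in controls and 226 to 282 in knockouts (0.37, SE 0.40). Ebi3, a subunit of the suppressive cytokine IL-35, had 45.9 to 149 in controls and 117 to 224 in knockouts (0.67, SE 0.34, adjusted p = 0.395; 0.29 without control 4). All 3 genes of this list had a log2 fold change above 0, where 46.9% of the panel did.

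TGF-beta, its presenters and its processing enzymes were represented by 5 genes, none of which passed and all of which lay above 0, with a median of 0.49. Without control 3 the median was 0.31 and 4 of the 5 lay above 0. TGFb, the panel's name for the suppressive cytokine, had a signal of 1825, 1863, 1247 and 1296 in controls and 1975, 2892, 2747, 2553 and 3284 in knockouts. The groups did not overlap, although knockout 1 lay only just above controls 1 and 2. The log2 fold change was 0.79 (SE 0.35, 95% interval 0.07 to 1.51, adjusted p = 0.395). Pcsk1, the proprotein convertase PC1, had 83.5, 105.6, 32.6 and 87.5 in controls and 74.3, 241.6, 201.3, 194.4 and 160.6 in knockouts. Knockouts 2 to 5 exceeded every control and knockout 1 lay among them (1.18, SE 0.56, interval 0.03 to 2.34, adjusted p = 0.395). Furin, the convertase that cleaves pro-TGF-beta, had 254 to 600 in controls and 403 to 1061 in knockouts (0.49, SE 0.39). Lrrc32, the surface protein GARP that holds latent TGF-beta on Tregs, differed by 0.44 (SE 0.81), and Nrp1, a co-receptor of Tregs that also binds TGF-beta, by 0.14 (SE 0.68).

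None of the core Treg genes passed, and Foxp3 had nearly the same mean in both groups. Foxp3, the lineage factor, had a signal of 4878, 4986, 2126 and 3798 in controls and 3876, 3643, 3576, 3534 and 4603 in knockouts. The knockouts lay within the control range, and control 3 was the lowest mouse (log2 fold change 0.03, SE 0.47, interval -0.95 to 1.02; -0.24 without control 3). CD25, the IL-2 receptor alpha chain, had 904 to 1438 in controls and 1132 to 1674 in knockouts (0.33, SE 0.52), and Helios, a factor of thymus-derived Tregs, 2425 to 3854 and 3520 to 4877 (0.37, SE 0.37). With Lrrc32 and Nrp1, the 5 genes of the list had a median of 0.33 and none passed. All 5 lay above 0 with every mouse included, and 3 of the 5 without control 3 (median 0.21). The 7 measured suppressive effectors, which also take in IL-10, Ebi3 and Areg, had 4 above 0 and 3 below, a median of 0.16 and none that passed. TGFb, which was not matched to a mouse symbol, was not counted here, although this list also names a TGF-beta gene. Its log2 fold change was 0.79.

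**Figure D2:**
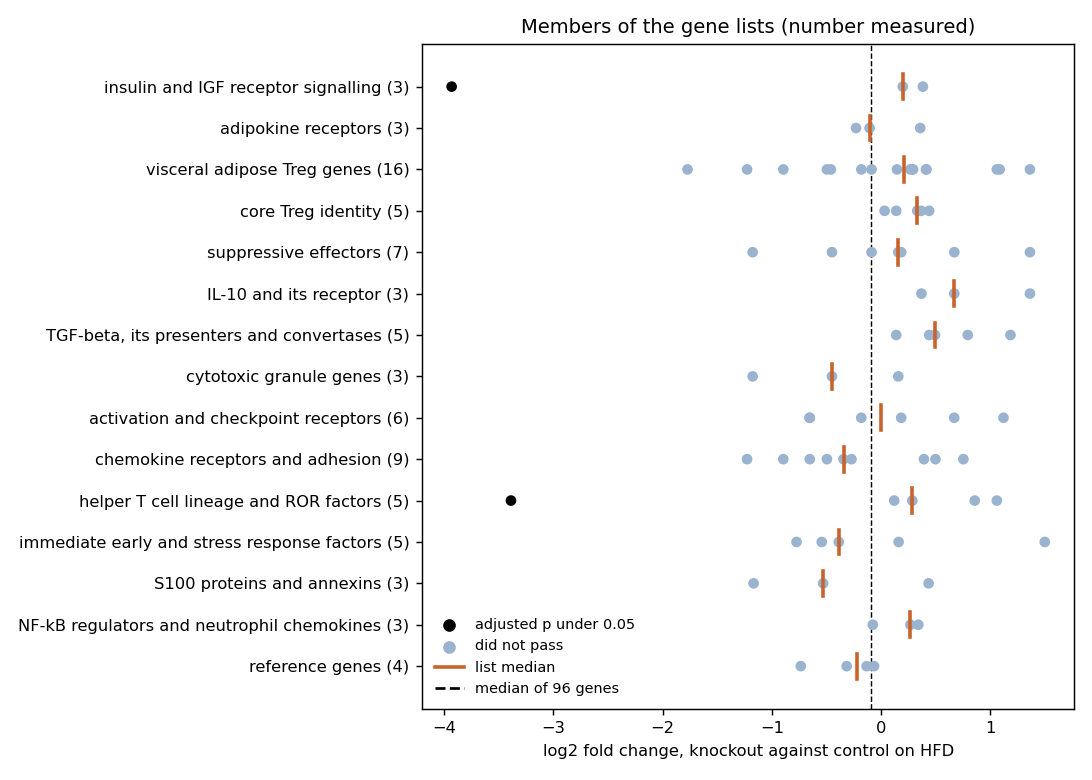
Log2 fold change of knockout against control on HFD for the measured members of the 15 gene lists with 3 or more measured genes, each a point, with the list median (orange line) and the median of all 96 genes (dashed line, -0.097). InsR and Rorgt, in black, passed. Without control 3 the list median went from -0.106 to 0.027 for the adipokine receptors and from -0.45 to -0.243 for the cytotoxic granule genes. It went from -0.388 to -0.047 for the immediate early and stress response factors. For the NF-kB and neutrophil chemokine list it went from 0.268 to 0.023. The members of most lists lie on both sides of 0, while those of the core Treg, IL-10 and TGF-beta lists all lie above it and the 4 reference genes below it, which for the core Treg, TGF-beta and reference genes did not hold for every member without control 3.

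Of 16 measured genes known from VAT Tregs none passed, 9 lay above 0 and 7 below, and the median was 0.21 (0.06 without control 3). Il1rl1, the IL-33 receptor, had a signal of 1652, 1109, 822 and 1997 in controls and 712, 1713, 2313, 2079 and 1860 in knockouts. Knockout 1 was the lowest of all 9 mice and far from the other knockouts (log2 fold change 0.29, SE 0.47, interval -0.69 to 1.27). Leaving out single mice gave 0.07 (without control 3) to 0.59 (without knockout 1). Pparg, the nuclear receptor that VAT Tregs depend on, had 19.7 to 83.4 in controls and 31.4 to 123 in knockouts on 11 to 123 counts (0.42, SE 0.43, interval -0.47 to 1.30). Without single mice Pparg ranged from 0.09 (without control 2) to 0.76 (without control 4), with 0.21 without control 3 and 0.12 without knockout 2. Klrg1, a receptor of terminally differentiated effector cells, had 38.0 to 175 in controls and 22.9 to 239 in knockouts (-0.18, SE 0.81), and Areg, the repair factor amphiregulin, 882 to 1346 and 701 to 1117 (-0.09, SE 0.44). Without control 3 Klrg1 was at 0.05 and Areg at 0.06, and the sign of both also turned with the scaling or with another mouse left out. Irf4 (0.41) and Prdm1 (0.15), 2 factors of effector Tregs, also did not pass. For these tissue genes the intervals reach about 1 log2 unit or more on at least one side, so this fit does not resolve changes of that size. Its intervals rest on a spread estimated over all groups, not on the HFD mice alone. For Gata3, also of this list, the SE of 0.53 exceeded the SD of log2 signal in HFD controls (0.20) and HFD knockouts (0.10). For Klrg1 these SDs were 0.996 and 1.35, both above its SE. With groups of this size the SE of a difference is smaller than the SD behind it, so Klrg1 shows no such mismatch. As Gata3 shows, the width of an interval is not for every gene a measure of what the 9 HFD mice alone can resolve.

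Dgat1, which makes triglyceride, had a signal of 3245, 2700, 335 and 3172 in controls and 2498, 3814, 4180, 4320 and 4073 in knockouts. Control 3 was far below every other mouse, and the log2 fold change of 1.09 (SE 0.55, adjusted p = 0.395) was 0.29 without that mouse. Plin2, a coat protein of lipid droplets, had 1909, 1078, 81.4 and 329 in controls and 88.6, 884, 57.8, 299 and 147 in knockouts. It ranged widely in both groups and did not pass (-1.41, SE 0.88; -2.26 without control 3 and -0.75 without control 1).

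Of the 6 activation and checkpoint receptors none passed, 3 lay above 0 and 3 below, and the median was 0.001 (4 above, 2 below and 0.11 without control 3). Tnfrsf9, the co-stimulatory receptor 4-1BB, had a signal of 754, 670, 184 and 738 in controls and 909, 1278, 1054, 918 and 1520 in knockouts. The groups did not overlap, and control 3 was the only control under 600 (log2 fold change 1.12, SE 0.53, adjusted p = 0.395; 0.63 without control 3). ICOS, a co-stimulatory receptor that maintains effector Tregs, had 989 to 2455 in controls and 2297 to 3450 in knockouts (0.67, SE 0.37; 0.38 without control 3). Pdcd1, the inhibitory receptor PD-1, differed by 0.18 (SE 0.44) and Cd69, an early activation marker, by -0.66 (SE 0.45; -0.38 without control 3 and -0.43 without knockout 5). Cd44, an adhesion receptor of activated T cells, was measured on 2 to 15 counts and differed by -0.65 (SE 0.82).

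The cytotoxic granule genes lay on both sides of 0. Perforin, which forms pores in target cells, had a signal of 328, 104, 360 and 1005 in controls and 206, 155, 129, 151 and 110 in knockouts. The knockouts were alike, within 110 to 206, while control 2 lay below them all and control 4 far above (log2 fold change -1.18, SE 0.54, adjusted p = 0.395; -0.65 without control 4). GzmA differed by -0.45 (SE 0.72) and GzmB by 0.16 (SE 0.68), both on low counts.

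Of 9 chemokine receptor and adhesion genes none passed, 3 lay above 0 and 6 below, with a median of -0.34. Ccr1, a receptor for inflammatory chemokines, had 13.1 to 65.2 in controls and 4.45 to 34.7 in knockouts (-1.23, SE 0.71, adjusted p = 0.432). Ccr4, a skin and tissue homing receptor, had 151.9, 219.7, 250.5 and 466.9 in controls, listed by size, and 369 to 477 in knockouts (0.75, SE 0.54). All knockouts exceeded 3 of the 4 controls. Ccr2 (-0.50), Ccr3 (-0.90, on 2 to 17 counts), Ccr7 (-0.34), Cxcr4 (0.39), Cxcr6 (0.50) and Cd9 (-0.27) filled the rest of the list with Cd44.

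**Figure D3:**
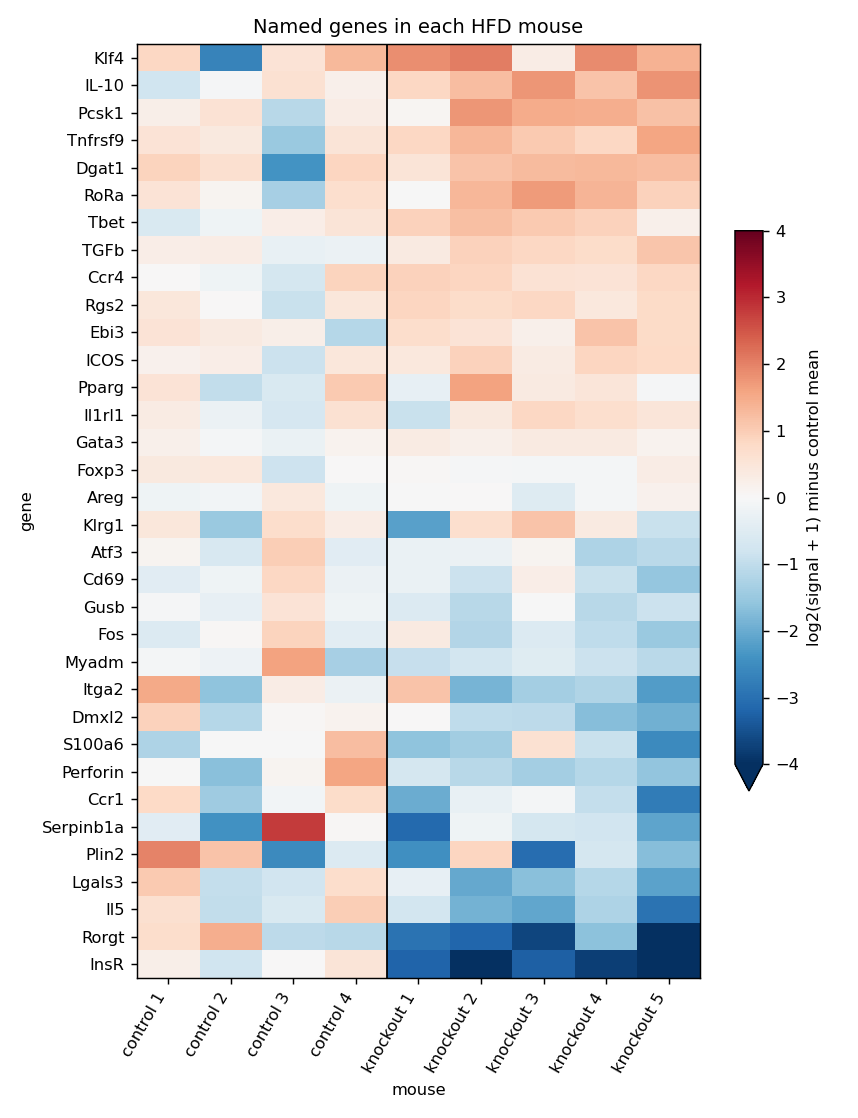
Log2(signal + 1) of the 34 named genes in each of the 9 HFD mice, minus the mean of the 4 controls (red higher, blue lower; the colour scale ends at 4 below and above). InsR and Rorgt are blue in all 5 knockouts, and control 3 differs from the other controls in Dgat1, Tnfrsf9, RoRa, Serpinb1a and Myadm.

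Among immediate early and stress response factors, Klf4 had the largest positive log2 fold change of the panel and did not pass. This factor of quiescence and differentiation had a signal of 1310, 115, 1069 and 1830 in controls and 2675, 3036, 916, 2728 and 1956 in knockouts. Control 2 was far below every other mouse, and knockout 3 lay below 3 of the controls. The log2 fold change was 1.498 (SE 0.56, interval 0.35 to 2.65, adjusted p = 0.211), or 0.61 without control 2. Fos, the AP-1 factor that early stimulation and tissue digestion both induce, had 6819 to 18513 in controls and 3534 to 12725 in knockouts (-0.77, SE 0.41; -0.47 without control 3). Atf3 (-0.54; -0.22 without control 3), Fosb (-0.39) and Nr4a1 (0.16) also did not pass. Fos, Fosb and Atf3 were each highest in control 3.

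The remaining lists held no gene that passed. The S100 and annexin list had S100a6 (-1.17, SE 0.69; -0.75 without control 4), Anxa1 (-0.53) and S100a4 (0.43), the NF-kB and neutrophil chemokine list Cxcl2 (0.27), Cxcl3 (0.34) and Nfkbid (-0.08). The 4 reference genes all lay below 0 with a median of -0.22, or 3 of them with a median of -0.13 without control 3: Gusb at -0.74 (SE 0.40), Rpl19 at -0.32, Hprt at -0.13 and Sdha at -0.06. Rpl19 alone made up 12.3 to 23.6% of the panel, so its level affects the scaled signal of every other gene.

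The 34 panel genes in no list had a median of -0.58, with 10 above 0 and 24 below, and none passed. Myadm, a membrane protein of myeloid and other cells, had 177, 162, 582 and 75.0 in controls and 88.1 to 135 in knockouts (-0.81, SE 0.41; -0.27 without control 3 and -1.25 without control 4). Serpinb1a, an inhibitor of neutrophil proteases, had 59.1, 14.4, 572 and 83.4 in controls and 8.57 to 72.2 in knockouts (-1.37, SE 0.76; -0.43 without control 3 and -2.17 without control 2). Rgs2, a regulator of G protein signalling, had 5453, 4068, 2147 and 5461 in controls and 7274, 6748, 7084, 5390 and 6769 in knockouts. Knockout 4 alone lay within the control range (0.72, SE 0.39; 0.42 without control 3). Lgals3, which encodes galectin-3, had 3 to 8 counts in controls and 1 to 3 in knockouts (-1.47, SE 0.71, adjusted p = 0.395). Dmxl2 (-1.13) had 3 to 15 counts and Itga2 (-1.11) 2 to 16, the latter with -0.60 without control 1 and -1.66 without knockout 1. The fold changes of such low genes depend on the pseudocount: with 10 in place of 1 they were -0.56 for Lgals3, -0.55 for Dmxl2, -0.49 for Itga2 and -0.73 for Il5. A log2 difference beyond 1 in size was found in 19 of the 96 genes (19.8%), below -1 in 13 (13.5%) and above 1 in 6 (6.25%).

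**Figure D4:**
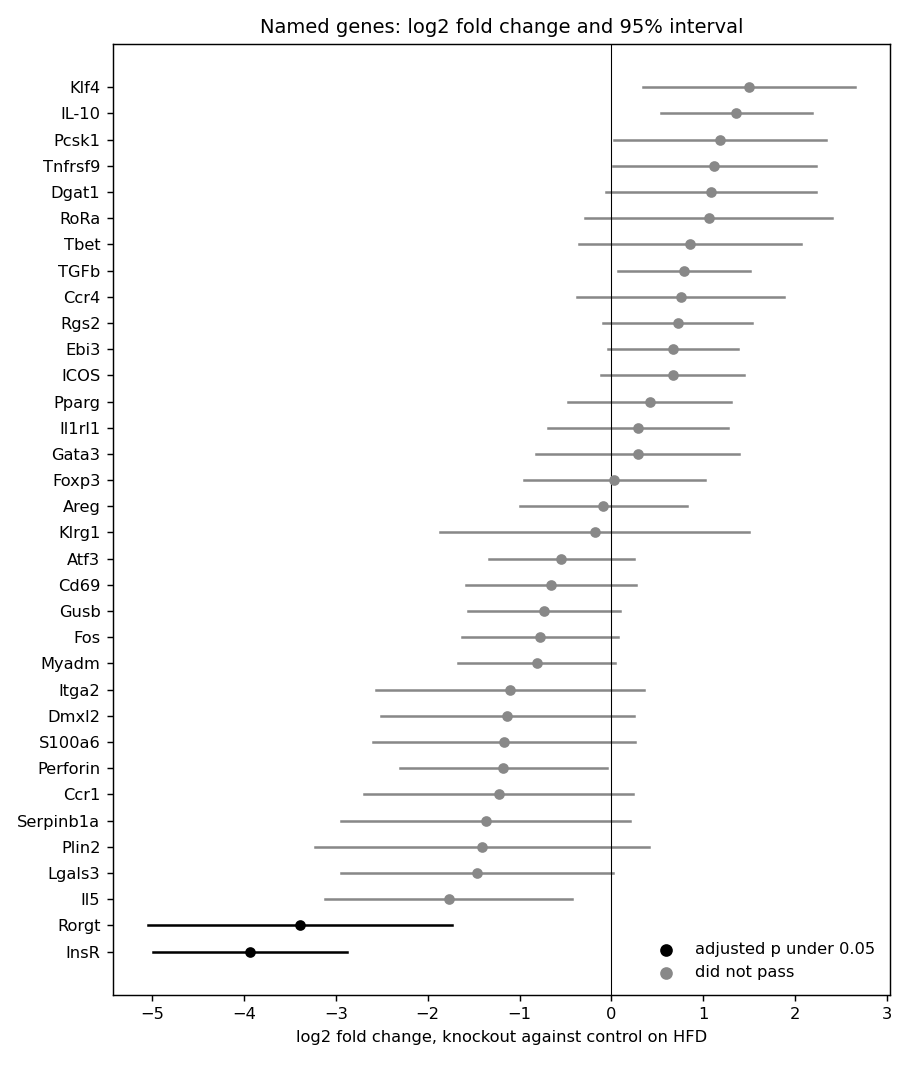
Log2 fold change (points) with 95% interval (bars) of the 34 named genes, knockout against control on HFD, ordered by size. InsR and Rorgt, in black, passed after adjustment. The intervals of IL-10, Klf4, TGFb, Pcsk1 and Tnfrsf9 lie above 0 and those of Il5 and Perforin below it before adjustment.

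The comparison of spread between the groups changed when control 3 was left out. The median SD of log2 signal over the 96 genes was 0.767 in controls and 0.665 in knockouts, and the SD was smaller in knockouts for 63 genes and larger for 33 (34.4%). Without control 3 the median SD of the controls was 0.570, and the knockouts had the smaller SD for 45 genes and the larger for 51. Control 3 was the control farthest from its group, and no knockout was left out beside it. Leaving it out therefore lowers the control spread alone and cannot show whether the genotypes differ in spread. Across genes, Pearson's r of log2 signal was 0.863 to 0.941 between controls (6 pairs), 0.890 to 0.978 between knockouts (10 pairs) and 0.865 to 0.947 between a control and a knockout (20 pairs). Without control 3 the controls correlated at 0.914 to 0.941 (3 pairs). Mice of opposite genotype were thus nearly as alike as mice of the same genotype over this panel. These correlations are descriptions over genes, which are not independent replicates.

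The knockout effect on HFD was set against that in chow-fed mice of the same age by the difference of both log2 fold changes. No gene passed (0 of 96), while 12 had an unadjusted p under 0.05 (12.5%); limma's voom on the counts called 2 and sample weights 7. The difference lay above 0 for 52 genes (54.2%). The panel sums of the 3 NCD controls were 3.37, 9.98 and 26.7% above 100000, and those of the 3 NCD knockouts at most 0.118% above it. With every sample rescaled to 100000, 2 genes passed, both lower. Rorgt had the smallest p. It fell by 3.39 on HFD, and on NCD its signal was 250, 263 and 347 in controls and 162, 1359 and 2752 in knockouts, listed by size (log2 fold change 1.58, SE 0.97, adjusted p = 0.455). The difference was -4.96 (SE 1.26, 95% interval -7.57 to -2.36, adjusted p = 0.0634). Ccr7, the receptor for lymph node chemokines, had -0.34 on HFD and 2.81 on NCD (difference -3.16, SE 0.89, adjusted p = 0.0853). Ccr3 (-0.90 and 2.15) and Lmna (0.51 and 2.28), which encodes lamin A/C, came next, both with adjusted p = 0.222. For InsR the difference was -0.63 (SE 0.80, interval -2.29 to 1.04).

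The knockout effect on HFD differed from that in 52-week-old mice for 12 genes (12.5% of 96), of which 11 were higher on HFD (11.5%) and 1 lower (1.04%), by limma on the difference; 61 of all 96 differences lay above 0 (63.5%). In size, the aged effects of these genes were 1.05 to 2.62 and the HFD effects 0.18 to 1.36. IL-10 had the largest difference, with values on both sides of 0: 1.36 on HFD and -2.07 (SE 0.42) in aged mice, a difference of 3.43 (SE 0.58, 95% interval 2.23 to 4.63, adjusted p = 0.000503). IL-10 signal was 42.0 in HFD controls and 107 in HFD knockouts, against 349 ± 77.6 (SD, n = 3) in aged controls and 86.9 ± 34.9 (n = 6) in aged knockouts. The knockout means of both settings were thus close to each other, and the control means were far apart. Il1rl1 (0.29 and -2.62), Il10ra (0.37 and -1.99), Helios (0.37 and -1.82) and CD25 (0.33 and -2.35) were lower in aged knockouts. On HFD their effects of 0.29 to 0.37 did not pass, which does not show that they equal the controls. Their differences were 2.19 to 2.91. Pcsk1 (1.18 and -1.94), Tbet (0.86 and -2.09), Dgat1 (1.09 and -1.70), Tnfrsf9 (1.12 and -1.32) and ICOS (0.67 and -1.07) were above 0 on HFD and below it in aged mice, and Pdcd1 was 0.18 and -1.91. Myadm ran the other way (-0.81 and 1.05). The marker genes differed in the aged mice too. Mean signal in aged controls and aged knockouts was 1784 and 687 for Foxp3 and 1191 and 291 for Tcra. It was 2625 and 1977 for Lyz2, 206 and 37.2 for Mmp9, and 1111 and 5452 for the stromal marker Igfbp7. A different mix of cells in the aged samples and a change of expression per cell cannot be told apart, and neither was tested.

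**Figure D5:**
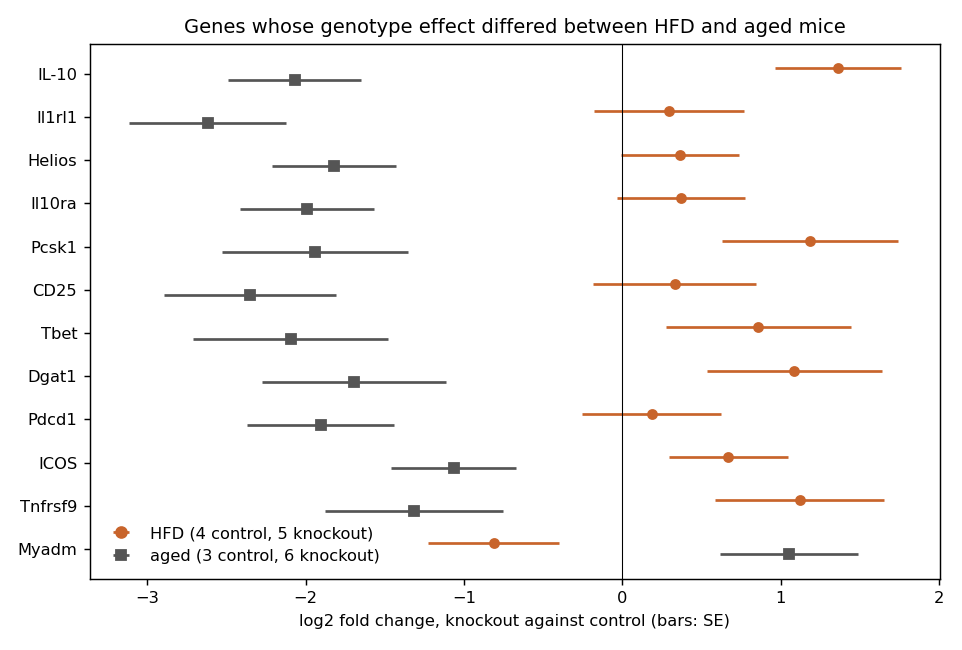
Log2 fold change of knockout against control (points, bars are the SE) in HFD mice (orange circles, 4 controls and 5 knockouts) and in 52-week-old mice (grey squares, 3 controls and 6 knockouts) for the 12 genes whose fold changes differed. The grey points of 11 genes lie at -1.07 or lower with the orange points at 0.18 or higher, and Myadm is reversed.

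How many of these differences pass depends on the scaling. With each sample centred on its median the difference of all genes moved by -0.836 at the median, and 8 genes passed, 1 higher and 7 lower. Only IL-10 (2.59, adjusted p = 0.0236) and Myadm (-2.70, 0.0236) were among both sets. With centring on the 4 reference genes 16 genes passed, all higher, and 11 of them were among the 12. IL-10, Il1rl1, Helios and Il10ra passed whichever of the 18 mice was left out, and the count was 5 to 21, with 5 without aged control 2 or 3 and 21 without aged knockout 1 or 5. The HFD and aged mice differed in both age and diet, while the NCD mice share the age of the one and the chow of the other. The IL-10 effect on NCD was -0.09 (SE 0.48), between the HFD and aged values. Its difference between HFD and NCD was 1.45 (SE 0.63) and did not pass (adjusted p = 0.321). Both comparisons of effects share the 9 HFD mice.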

How the data were processed

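The deposited nCounter signal appears to have been scaled by the authors to 100000 per sample, as read from the values: the panel summed to 100000 in 12 of the 14 knockouts and exceeded it in the other 2 and in all 10 controls, by up to 26.7%. Background correction, scaling by control probes and software are not stated in the sources used here. Counts were recovered by dividing by the signal of 1 count; 2302 of 2304 values were whole within 0.02 counts. Values were transformed as log2(signal + 1), and limma 3.58.1 in R 4.3.3 fitted 6 group means to all 24 mice, so the HFD comparison uses a spread estimated over all groups (18 residual degrees of freedom). No gene or mouse was left out. Contrasts were knockout minus control on HFD, and this effect minus those on NCD and in aged mice. Two-sided p values of each contrast were adjusted over 96 genes by Benjamini-Hochberg. The fit was tested on simulated data.

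The text names the 30 genes with the smallest p on HFD, 8 further genes always (some of them among the 30), the 5 smallest p of each difference of effects, every gene that passed and measured list members. For 2 genes that this rule takes, results are not reported here, but they are included in counts. The comparison, gene lists and named genes were chosen with earlier results of these data known. Of the 96 panel names, 95 were matched to a mouse symbol. Outlying mice were sought with Dixon's ratio. Alternatives are listed in the closing section.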

Additional observations from a re-analysis of the deposited data

Results flagged for a closer look

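In 7 of 68 groups of named genes, 1 mouse lay apart from the others by Dixon's ratio at the 95% level; chance gives about 1 group in 20. Control 3 accounted for 3 of them. Its signal was 184 for Tnfrsf9, against 670 to 754 in the other controls, 335 for Dgat1 (others 2700 to 3245) and 1346 for Areg (others 882 to 930). Knockout 1 accounted for 2, with 2498 for Dgat1 (others 3814 to 4320) and 712 for Il1rl1 (others 1713 to 2313). Knockout 4 had 5390 for Rgs2 (others 6748 to 7274), and knockout 5 had 138 for Tbet (others 229 to 279).

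The log2 effect of the knockout differed between HFD and aged mice, by limma on the difference with adjustment over the panel, for 12 genes. The differences were 3.43 for IL-10 (adjusted p = 0.000503), 3.12 for Pcsk1 (0.016), 2.95 for Tbet (0.0256), 2.91 for Il1rl1 (0.0133), 2.78 for Dgat1 (0.0256) and 2.68 for CD25 (0.0256). They were 2.44 for Tnfrsf9 (adjusted p = 0.040), 2.36 for Il10ra (0.0133), 2.19 for Helios (0.0133), 2.09 for Pdcd1 (0.0371), 1.73 for ICOS (0.040) and -1.87 for Myadm (0.040).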

How the results depend on the processing

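Alternatives were pseudocounts of 0.1 and 10, leaving out the 24 lowest genes or those under 20 counts in most samples, centring on 4 reference genes or each sample's median, rescaling to 1 total, the HFD mice alone, sample weights, a robust prior with a variance trend, a replicate block, log2 total count as a covariate, voom on recovered counts and leaving out each mouse. Centring on 3 reference genes without Gusb was chosen after seeing the data. The count tests edgeR and DESeq2 were not run.

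On HFD the count of 2 became 1 without the 24 lowest genes or those under 20 counts, since both leave out InsR. It was 1 with the HFD mice alone, 1 with a replicate block (Rorgt -3.29, adjusted p = 0.0758) and 1 with both (-2.86, 0.166), 5 with sample weights, 4 with voom and 1 to 3 without single mice, and 3 with 1 higher after centring on 4 reference genes. Same-numbered HFD mice deviated together in 3 of 4 pairs (r over 0.1, at most 0.168) and not in the other (-0.248). Of the 4 controls, 2 correlated best with the knockout of the same number. The other 2 did so with another knockout, at 0.391 (control 2 with knockout 5) and 0.257 (control 4 with knockout 2). As same-numbered mice did not go together throughout, the numbers were not taken to pair mice.

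Without control 3, the control farthest from its group, and with all 5 knockouts kept, the knockouts had the smaller SD for 45 genes and the larger for 51. For HFD against NCD effects the count of 0 became 1 with pseudocount 10, without the 24 lowest genes, without those under 20 counts, with median centring, with the variance trend and with the depth covariate, 2 with rescaling or voom, 7 with sample weights and 0 to 1 without single mice. For HFD against aged effects the count of 12 became 35 with sample weights (25 higher), 23 with voom (18 higher) and 5 to 21 without single mice.

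Foxp3 turned to -0.18 with sample weights, -0.057 with the replicate block, -0.035 with the HFD mice alone and the block, and ranged from -0.24 to 0.17 without single mice. Klrg1 turned to 0.13 with 4 reference genes and 0.15 with sample weights (-0.67 to 0.32 without single mice). Areg turned to 0.22, 0.014 and, with 3 reference genes, 0.083 (-0.15 to 0.058). None of the 3 passed, and the cause was not tested. Il5 passed with sample weights and the depth covariate, Lgals3 with sample weights and Klf4 with voom. Genes on under 20 counts are limited by counting error.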

Other observations

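Genes outside the naming rule, picked after their values were seen, also set control 3 apart. Cdkn1a, the cell cycle inhibitor p21, had a signal of 164 in that mouse, 1496 to 1739 in the other controls and 1223 to 1475 in the knockouts. Lrig1, a negative regulator of growth factor receptors, had 437 there, against 1709 to 1886 in the other controls and 1436 to 1933 in the knockouts. Igfbp7 was lowest in control 3 (17.1) and highest in control 1 (1151).

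Cxcr4, a receptor for the chemokine CXCL12, had 2192 in knockout 1, 3780 to 5549 in controls and 6225 to 8632 in knockouts 2 to 5. Knockout 1 also had the lowest Il1rl1, Klrg1 and Cxcr6 of the 9 mice. Ltb4r1, a receptor for the lipid mediator leukotriene B4, ranged from 75.0 to 1675 in controls and from 62.1 to 853 in knockouts.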
